A study of Mus musculus with 11 samples.

Results

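The replication-dependent histone genes are the families of near-identical genes that supply the core proteins of new chromatin while DNA is copied. They were taken by gene symbol from the deposited gene table: 61 genes matched the symbol patterns of the clustered core and linker histones, 3 of these (H2ac14, H2ac5-ps and Hist1h2al) were not annotated as protein coding, and 58 of the 55487 genes in the table remained. These 58 comprised 17 H2A, 17 H2B, 12 H3 and 12 H4 genes. The table lists the clustered linker histones under the symbols H1f1 to H1f5, which the patterns do not match, so they are described separately. By RefSeq, 48 of the genes lie in the cluster on chromosome 13 and 10 in the cluster on chromosome 3.

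The libraries came from bone marrow-derived macrophages of C57BL/6J mice 2 to 5 months old, grown for 5 to 6 days in medium with 10% CMG-conditioned medium and then kept in 2%. CMG-conditioned medium is a source of the macrophage growth factor CSF1. The 7 control libraries stood at 0.00 µg/ml CYR61, and the 4 CYR61 libraries came from cells given 0.50 µg/ml CYR61 for 24 h. CYR61 (CCN1) is a matricellular protein of the CCN family, a ligand of integrins. No vehicle is named in the labels, nor the animal or culture behind each replicate. The p-values therefore describe only library-to-library spread, part of which may be technical.

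In dividing cells these genes are switched on at the start of S phase by NPAT and its partners, and their transcripts are destroyed when DNA synthesis stops. Their messages carry no poly(A) tail. They end instead just after a short stem-loop that binds the stem-loop binding protein SLBP, which takes part in their cutting, export and translation. Libraries made from total RNA after removal of ribosomal RNA, as here, keep such transcripts, whereas selection for poly(A) would lose most of them. Macrophages grown in CSF1 divide in culture, so their RNA can hold histone messages. In bulk RNA, fewer dividing cells and less histone RNA per cell cannot be told apart.

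The stem-loop is shown for members that the results name or that stand for a variant of it, because it is the element that distinguishes these messages. Sequences were read from GENCODE M21 transcripts, 5′ to 3′, and capitals mark the 16 bases of the stem and its loop.
H2ac19: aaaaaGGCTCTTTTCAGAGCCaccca
Hist1h2bp: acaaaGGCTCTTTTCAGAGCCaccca
H2bc11: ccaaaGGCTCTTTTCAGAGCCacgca
H3c6: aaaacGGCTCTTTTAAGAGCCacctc
H2ac20: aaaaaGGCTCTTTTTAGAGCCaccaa
H4c8: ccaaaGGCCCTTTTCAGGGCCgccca
H4c9: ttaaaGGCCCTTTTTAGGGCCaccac
H4c2: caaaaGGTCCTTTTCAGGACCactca
A search for the histone stem-loop consensus on the transcript strand found it in 37 of the 58 genes and in 51 of 55450 annotated genes (0.0920%). The version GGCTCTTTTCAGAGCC was in 9 H2A, 7 H2B and 5 H3 genes. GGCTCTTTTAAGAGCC was in 2 H2B and 3 H3 genes, and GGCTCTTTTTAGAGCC in 1 H2A gene. H4 genes used other stems, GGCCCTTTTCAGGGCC in 6 genes, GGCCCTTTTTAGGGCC in 2 and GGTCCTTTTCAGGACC in 2. Of the 21 genes without a match, 15 have annotated models of at most 420 bases, about the length of the coding sequence alone.

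Levels are given as CPM, counts per 1000000 of the library total, scaled with TMM factors. These factors were 1.004 to 1.023 in controls and 0.971 to 0.993 in CYR61 libraries. Library totals were 14912123 to 21047654 counts in controls and 17390272 to 20760322 in CYR61 libraries. Over all 15135 genes tested with edgeR's quasi-likelihood test, 398 were lower and 806 higher after CYR61 at a Benjamini-Hochberg adjusted p below 0.05. With scaling by library size alone these became 938 lower and 529 higher. All 8 listed macrophage markers were tested, and 5 rose (Adgre1, Csf1r, Itgam, Fcgr1 and Lyz2). The other 3 did not pass, and 1 of the 8 had a log2 fold change below 0. The 8 together summed to 22338 to 23730 CPM in controls and 24708 to 26922 after CYR61. Of 6 B cell markers 2 were tested and 1 fell, the immunoglobulin heavy chain gene Ighm, from a mean of 61.3 CPM in controls to 47.3 CPM after CYR61. The other, Cd79b, was at 0.479 and 0.558 CPM and did not pass. Of 8 neutrophil markers 1 was tested, S100a8, which rose, with Ly6g at 0 in every library. The level was low: all 8 together summed to 0.785 to 1.45 CPM in controls and 1.77 to 2.27 CPM after CYR61. The part of these markers in the histone values was not tested. CYR61 replicate 4 held 2.41% ribosomal RNA, the other libraries 0.246 to 0.797%.

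Histone messages took 0.422 to 0.521% of counts in controls and 0.418 to 0.450% after CYR61. The summed level of the 58 genes, in CPM, was 4127 in the lowest control, 4658 in the median control and 5193 in the highest. In CYR61 libraries 1 to 4 it was 4455, 4276, 4589.8 and 4345. On this TMM-scaled measure all 4 CYR61 libraries lay below the median control and none below the lowest, so the groups overlapped. As shares of counts, without TMM factors, CYR61 libraries 2 (0.4177%) and 4 (0.4213%) lay just below the lowest control (0.4216%). The means were 4697 ± 341 (SD, n = 7) and 4417 ± 137 (SD, n = 4), which is 5.98% lower after CYR61. That difference is smaller than the SD of the controls. The chromosome 13 cluster was 5.88% lower and the chromosome 3 cluster 6.35% lower.

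Of the 58 genes, 55 had enough counts to be tested. By edgeR 3 fell (H2ac13, H2ac15 and Hist1h2bp; 5.45% of those tested) and 0 rose at an adjusted p below 0.05, and 52 did not pass. Among all genes tested, 2.63% fell and 5.33% rose. At an unadjusted p below 0.05, 17 members were lower and 0 higher, where 9.26% of all genes were lower and 11.2% higher. DESeq2 called 6 members lower and 0 higher (2.85% and 5.66% of all genes) and limma-voom 3 lower and 0 higher (2.47% and 5.23%). Values below 0 were found for 53 of the 55, against 52.5% of all genes. The median log2 fold change was -0.09, a level 6.14% lower, beside -0.01 over all genes. It ranged from -0.72 (SE 0.31) for Hist1h2br to 0.08 (SE 0.12) for Hist1h2bq, neither of which passed. All 55 tested members were listed in the authors' deposited table, 6 of them lower and 0 higher at an adjusted p below 0.05, beside 4.44% of its genes lower and 7.85% higher. The median log2 fold change of the members in the authors' deposited table was -0.09.

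The count of 3 moved with single libraries: it was 10 without control replicate 1 (2.45% of all genes lower and 4.87% higher; H2ac19, H2bc3, H2bc6, H3c8, H3c11, H3c15 and H4c1 joining), 5 without control replicate 3 (2.04% and 4.49% of all genes), 1 without CYR61 replicate 2 (1.34% and 3.81%) and 1 without CYR61 replicate 4 (1.86% and 4.52%). No member was higher in these fits. The median log2 fold change was -0.12 without control replicate 1, -0.06 without control replicate 7, and -0.03 with controls 1 to 4 alone, where 1 member was lower and 0 higher (2.96% and 5.61% of all genes). With library size alone 13 members were lower and 0 higher (6.2% and 3.5% of all genes) and the median was -0.14.

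**Figure D1:**
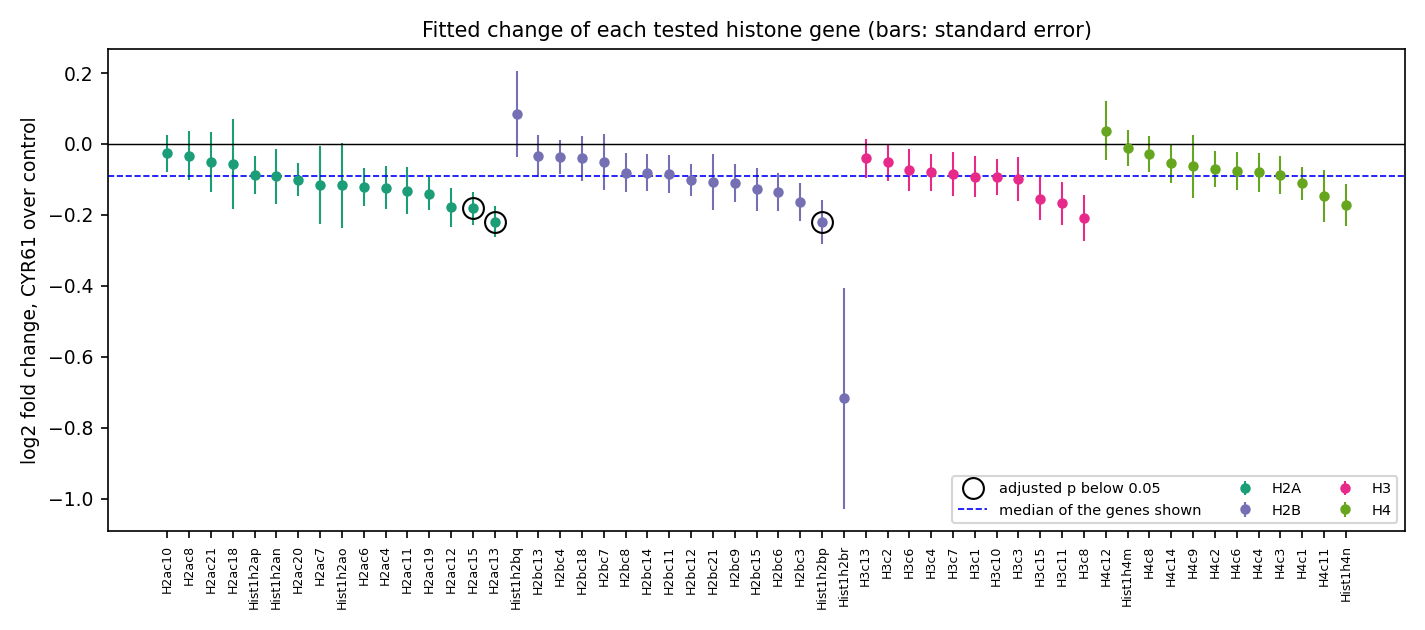
Log2 fold change of each tested histone gene, CYR61 over control, from the edgeR fit, with bars for the standard error and circles around the 3 genes at an adjusted p below 0.05. Points of all 4 classes sit mostly below 0, around the dashed median of -0.09, and Hist1h2br at -0.72 has the widest error.

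By class, the summed H2A level was 949.9 CPM in the lowest control, 1029.9 in the median and 1131 in the highest, and 984, 916, 996 and 948 in CYR61 libraries 1 to 4. CYR61 libraries 2 and 4 lay below every control, libraries 1 and 3 among the lowest controls. The mean was 7.73% lower, from 1041 ± 59.7 (SD, n = 7) to 961 ± 36.2 (SD, n = 4). H2B summed to between 857 and 1061 CPM in controls and to 865, 890.1, 958 and 915 after CYR61, 6.38% lower in the mean. H3 ran from 1233 to 1611 CPM in controls and was 1373, 1279, 1399 and 1312 after CYR61, 6.10% lower. H4, from 1087 to 1389.6 CPM in controls and 1233, 1191, 1237 and 1169.5 after CYR61, was 4.10% lower. For H2B, H3 and H4 every CYR61 library lay inside the range of the controls. The proportions between classes varied little: H2A made up 21.7 to 23.0% of the total in controls and 21.4 to 22.1% after CYR61, H2B 20.4 to 20.9% and 19.4 to 21.1%, H3 29.9 to 31.0% and 29.9 to 30.8%, and H4 26.3 to 27.1% and 26.9 to 27.9%.

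**Figure D2:**
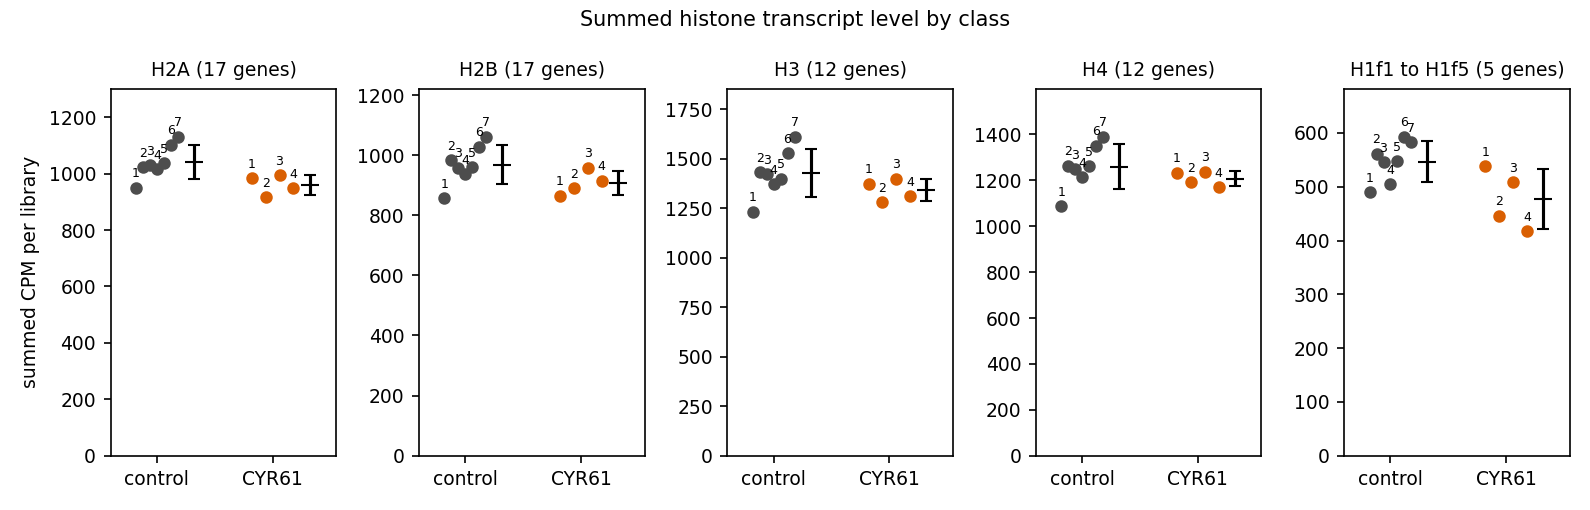
Summed CPM of each histone class per library, numbered by replicate, with bars for the mean and SD of each group (7 control, 4 CYR61). Control replicate 1 is the lowest control and replicate 7 the highest in each core class. In the core classes CYR61 libraries lie within or just below the lower part of the control range. In the panel of H1f1 to H1f5, CYR61 replicates 2 and 4 lie below every control and replicates 1 and 3 within the control range.

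H2A pairs with H2B in the outer parts of the nucleosome. Of 16 H2A genes tested 2 fell, 0 rose and 14 did not pass, with 6 lower and 0 higher at an unadjusted p below 0.05, and the median log2 fold change was -0.12. H2ac13 was measured at 50.8 CPM in the lowest control, 55.3 in the median and 56.4 in the highest, and at 50.1, 43.1, 49.4 and 45.0 in CYR61 libraries 1 to 4. The groups did not overlap, by a narrow margin for CYR61 library 1, and this was the only tested member of which that was so (1 of 55, 1.82%, where all 4 CYR61 libraries lay below all controls for 2.5% of all genes and above them for 4.65%, and for 0 members). H2ac13 fell by 0.22 on the log2 scale (SE 0.04), or 14.1%, with an adjusted p of 0.00349 by edgeR with Benjamini-Hochberg adjustment. The adjusted p stayed between 0.000302 and 0.0236 in the 20 alternative fits. Its reads are hard to place: 13.9% of the windows of 150 bases in its annotated transcript occur in no other gene, and of its 244 windows 189 are shared with H2ac7, 184 with H2ac12, 182 with the pseudogene H2ac14 (Hist1h2aj in GENCODE) and fewer with other H2A genes.

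H2ac15 was 68.1 CPM in the lowest control, 74.2 in the median and 82.0 in the highest. CYR61 libraries 1 to 4 held 68.3, 62.7, 69.1 and 66.3 CPM. CYR61 libraries 2 and 4 lay below every control and libraries 1 and 3 just above the lowest. It fell by 0.18 on the log2 scale (SE 0.05), or 11.8%, with an adjusted p of 0.0217 in the edgeR fit, and every window of 150 bases in its transcript is unique to it. The call was lost without CYR61 replicate 2, without CYR61 replicate 4 and with controls 1 to 4 alone, with or without a block, in 4 of 20 alternatives with an adjusted p of up to 0.114.

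The most abundant H2A message, H2ac19, stood at 298 CPM in the lowest control, 333 in the median and 363 in the highest, and at 301, 291, 317 and 289 after CYR61. CYR61 libraries 2 and 4 lay under the controls and the others among the lowest of them. Its log2 fold change of -0.14 (SE 0.05) had an adjusted p of 0.0805 by edgeR and did not pass. In the authors' deposited table H2ac19 had a log2 fold change of -0.14 and an adjusted p of 0.0122. No window of its transcript is unique: all 379 occur in H2ac18 and in the overlapping transcripts Gm20632, Gm20633 and Gm20634. H2ac18 alone ran from 10.3 to 17.8 CPM in controls, with a coefficient of variation of 20.4%, while the pair summed to 316 to 373 CPM in controls and 304 to 329 after CYR61, with 3 of 4 CYR61 libraries below every control. With these 3 transcripts the sum was 368 to 446 CPM in controls and 374, 369, 397 and 362 CPM after CYR61, 7.44% lower, and 1 CYR61 library lay below every control.

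H2ac10, the H2A gene with the next most counts, was 94.9, 104 and 123 CPM in the lowest, median and highest control and 107, 96.5, 107 and 107 after CYR61. The groups overlapped, and CYR61 library 2 alone stood low. Its log2 fold change was -0.03 (SE 0.05). H2ac12 was measured at 16.04 to 18.8 CPM in controls and 15.0, 15.98, 16.7 and 15.6 CPM after CYR61. In all, 3 of the 4 CYR61 libraries lay below every control, and its log2 fold change of -0.18 (SE 0.06) missed the threshold with an adjusted p of 0.0567 by edgeR.

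Of 16 H2B genes tested 1 fell, 0 rose and 15 did not pass, with 6 lower and 0 higher at an unadjusted p below 0.05, and the median log2 fold change was -0.09. Hist1h2bp, which RefSeq names H2bc22, was 18.8 CPM in the lowest control, 20.2 in the median and 22.7 in the highest, and 19.1, 17.2, 16.7 and 17.1 after CYR61. CYR61 libraries 2 to 4 lay below every control and library 1 among the lowest controls. It fell by 0.22 on the log2 scale (SE 0.06), or 14.1%, with an adjusted p of 0.0364 by edgeR, and lost the call in 9 of 20 alternatives. These were both fits with controls 1 to 4 alone and those without control replicate 2, 5, 6 or 7 or CYR61 replicate 2, 3 or 4, with an adjusted p of up to 0.144.

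Of the 320 windows of Hist1h2bp 60.6% are unique, 126 occur in each of Hist1h2bq and Hist1h2br and 105 in H2bc12. Hist1h2br ran from 3.22 to 10.49 CPM in controls, with a coefficient of variation of 40.4%, and was 6.38, 1.87, 4.28 and 5.68 CPM after CYR61. Only CYR61 library 2 lay under the controls. In their shortest coding transcripts Hist1h2bq and Hist1h2br share all 232 windows with each other and 183 with H2bc12. Longer annotated transcripts, of the nonsense-mediated decay type, hold 154 unique windows in Hist1h2bq and 348 in Hist1h2br. Hist1h2br had an adjusted p of 0.194 by edgeR. These 3 genes summed to 41.2 to 47.6 CPM in controls and 35.4 to 41.2 CPM after CYR61, 10.9% lower in the mean, and 3 of 4 CYR61 libraries lay under the controls. With H2bc12 the sum was 134 to 153 CPM in controls and 134, 123, 135 and 139 CPM after CYR61, 7.96% lower, and 1 CYR61 library lay under the controls.

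The H2B genes with the most counts are described next. H2bc11 was 119, 141 and 157 CPM in the lowest, median and highest control and 126, 129, 138 and 131 after CYR61, with a log2 fold change of -0.08 (SE 0.05). H2bc8 was 114, 133 and 149 CPM in controls and 123, 123, 131 and 124 after CYR61, with a log2 fold change of -0.08 (SE 0.06). For both genes every CYR61 library lay within the range of the controls.

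H3 and H4 form the inner core of the nucleosome and carry many of its regulatory modifications. None of 11 H3 genes and none of 12 H4 genes passed in either direction by edgeR, with 3 H3 and 2 H4 genes lower and 0 higher at an unadjusted p below 0.05. DESeq2 called 1 H3 gene lower, H3c8, and no H4 gene, and limma-voom called none. The median log2 fold change was -0.09 in H3 and -0.07 in H4.

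H3c13 was 241, 274 and 312 CPM in the lowest, median and highest control and 280.3, 253, 281 and 259.6 after CYR61. H3c6 was 146, 172 and 198 CPM in controls and 159, 161, 179 and 161 after CYR61. In both genes the CYR61 libraries lay inside the control range, with log2 fold changes of -0.04 (SE 0.06) and -0.07 (SE 0.06). H3c8, at 54.7, 62.7 and 72.1 CPM in controls, was 58.4, 49.4, 59.4 and 56.4 after CYR61. Of the CYR61 libraries 1 lay under the controls, and the log2 fold change of -0.21 (SE 0.07) had an adjusted p of 0.0610 by edgeR. In the authors' deposited table H3c8 had a log2 fold change of -0.21 and an adjusted p of 0.0184.

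H4c4 was 213, 251 and 281 CPM in the lowest, median and highest control and 238, 237, 247 and 236 CPM after CYR61. H4c8 was 188, 219.9 and 244 CPM in controls and 217, 216, 215 and 211 CPM after CYR61. Both groups of CYR61 libraries were tightly spaced within a wide control range, and the log2 fold changes were -0.08 (SE 0.05) and -0.03 (SE 0.05). Hist1h4m, the H4 gene of highest p, had a log2 fold change of -0.01 (SE 0.05). H4c12 was one of the 2 members above 0, at 0.04 (SE 0.08), with 104 CPM in CYR61 library 1 and 77.0 to 83.1 in the other 3, beside 71.2 to 94.6 CPM in controls.

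Per kilobase of annotated transcript, the mean control level was highest for H2ac19 (625 CPM per kb), followed by H3c13 (565) and H4c8 (465), while H2bc11 stood at 300.02. H2bc21 was lowest among tested members, at 4.17 CPM per kb. These levels depend on the models, since some hold only the coding length and others run far past the stem-loop. The remaining 3 members were not tested. H2ac1 had a count of 1 in a single library and H2bc1 at most 19 counts; the annotation pairs them head to head. H3c14 was listed at 0 in every library, and no window of its transcript is unique. The 0 would allow up to 0.140 to 0.197 CPM only if no H3c14 reads were counted to other genes. All 1671 windows of H3c14 occur in the overlapping transcript Gm20634, 517 in H3c15 and 250 in H3c13. H3c13 to H3c15 summed to 355 to 467 CPM in controls and 373 to 415 CPM after CYR61, and with the overlapping Gm20628 and Gm20634 to 428 to 563 and 458 to 501 CPM, inside the control range.

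The histone genes varied together between controls. Control replicate 1 was the lowest control for 40 of the 55 tested members, and control replicate 7 was the highest for 38 and replicate 6 for 7. Among members with a mean of at least 10 CPM the median coefficient of variation over controls was 8.48% (53 genes), beside 4.90% for all tested genes at that level. Control replicate 1 also had the smallest total, 14912123 counts, and replicates 6 and 7 the largest of the controls. In CYR61 libraries the order differed, since replicate 2 had the largest total, 20760322 counts, and the lowest histone sum. The part of depth in these values was not tested. The called gene H2ac13 had a coefficient of variation of 3.61% over controls, the smallest of the tested members.

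**Figure D3:**
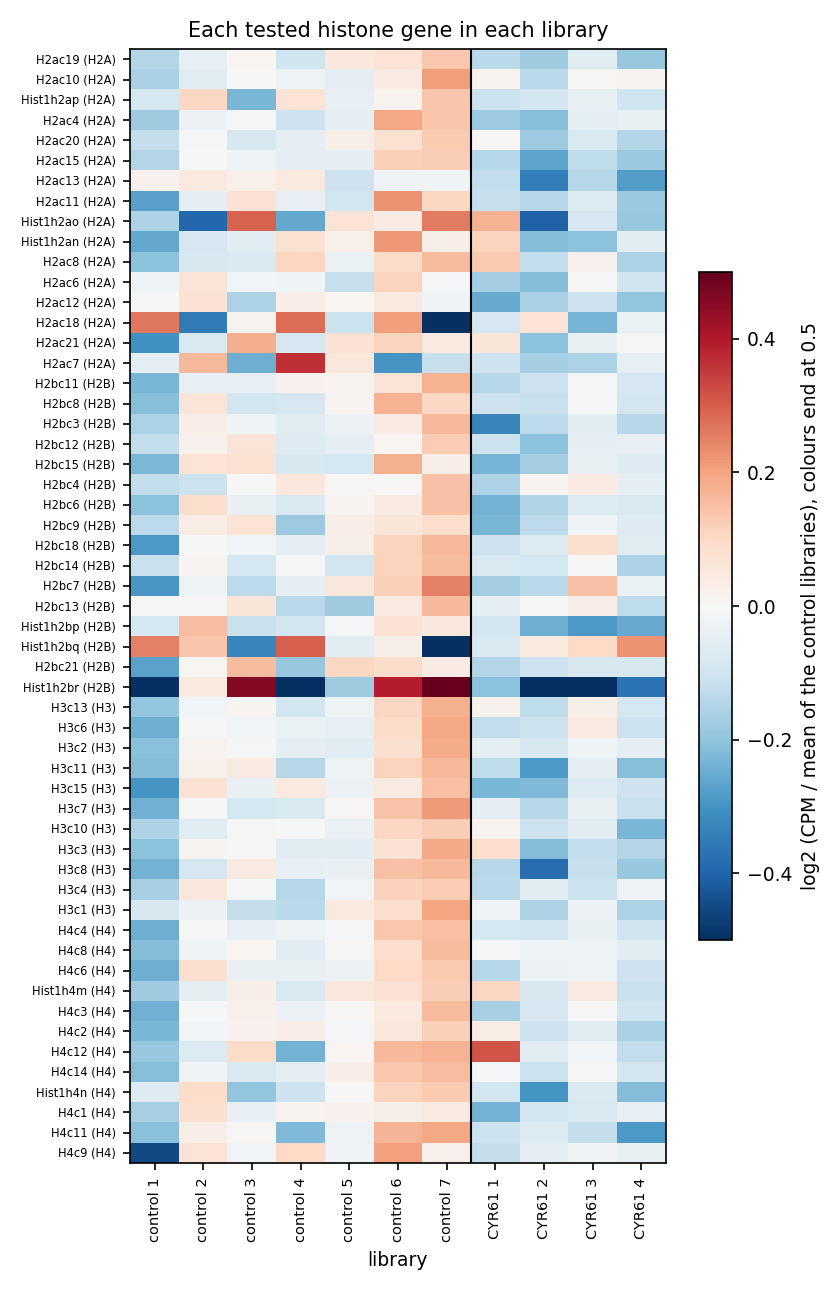
Log2 of each tested histone gene's CPM over its control mean, with genes in rows by class and level and the 11 libraries in columns, colours ending at 0.5. Control 1 is blue and controls 6 and 7 are red for most genes, and the CYR61 columns are mostly pale to mid blue.

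Estimated counts that are not whole can come from reads shared between genes, but they do not tell how often that happened. In each library 52 to 55 members had a count that differed at all from its rounded value, while 27.7 to 28.9% of other genes with counts did. Over 58 annotated transcripts, the shortest coding one of each gene, a median of 67.7% of windows of 150 bases were unique. For 7 members all windows were unique and for 7 none was (H2ac18, H2ac19, H2bc18, H3c13, H3c14, Hist1h2bq and Hist1h2br). Hist1h2bq and Hist1h2br also have longer annotated transcripts with unique windows. Apart from those windows, a value for one of these 7 rests on how the authors' counting divided shared reads. Such reads are shared with other members or with overlapping transcripts that are not members.

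The stem-loop lay within 60 bases of the end of the annotated transcript in 21 members, between 60 and 300 bases in 3, and over 300 bases before it in 13, with 3 to 2010 bases following. The annotated tails past the stem-loop belong to longer transcripts than the replication-dependent message. Median log2 fold changes were close in all of these groups: -0.09 for 36 tested members with a stem-loop (1 lower), -0.09 for 19 without a match (2 lower), -0.09 for the 21 with it near the end and -0.09 for 12 with it far from the end. The deposited counts are per gene and do not separate ends at the stem-loop from longer forms.

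Many H2A and H2B genes stand head to head and share the region between their starts. Pairs were sought among the 53 members with a matched RefSeq promoter, with starts at most 600 bases apart. There were 10 such pairs, with 164 to 281 bases between the starts. Members without a matched promoter could not be placed in a pair. Most of the 16 H2A and 16 H2B genes tested stand in the 9 pairs with both genes tested. Each of the 3 genes that fell, all H2A or H2B, belongs to a pair, and a link between pairing and the fall was not tested. Their upstream regions are shown from 250 bases before to 50 after the start, from RefSeq in build GRCm38.p6, with matches in capitals, on either strand, to the CCAAT box (letters CCAAT), to the TATA box as TATAAA, and to the octamer motif ATTTGCAT. H2ac13 at chr13:21716162-21716461 is on the plus strand, H2ac15 at chr13:21753863-21754162 on the minus strand and Hist1h2bp at chr13:21787238-21787537 on the plus strand.
H2ac13: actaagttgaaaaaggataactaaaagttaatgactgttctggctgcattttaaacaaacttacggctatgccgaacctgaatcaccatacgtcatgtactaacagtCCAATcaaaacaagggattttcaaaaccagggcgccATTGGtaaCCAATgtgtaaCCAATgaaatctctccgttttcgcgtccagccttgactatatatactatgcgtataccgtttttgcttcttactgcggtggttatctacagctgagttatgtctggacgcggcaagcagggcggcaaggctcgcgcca
H2ac15: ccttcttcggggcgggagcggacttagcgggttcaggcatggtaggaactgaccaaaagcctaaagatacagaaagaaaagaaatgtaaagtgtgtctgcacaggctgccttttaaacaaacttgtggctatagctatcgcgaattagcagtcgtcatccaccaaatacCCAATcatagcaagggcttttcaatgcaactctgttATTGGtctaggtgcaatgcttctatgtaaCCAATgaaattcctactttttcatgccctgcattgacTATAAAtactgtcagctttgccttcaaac
Hist1h2bp: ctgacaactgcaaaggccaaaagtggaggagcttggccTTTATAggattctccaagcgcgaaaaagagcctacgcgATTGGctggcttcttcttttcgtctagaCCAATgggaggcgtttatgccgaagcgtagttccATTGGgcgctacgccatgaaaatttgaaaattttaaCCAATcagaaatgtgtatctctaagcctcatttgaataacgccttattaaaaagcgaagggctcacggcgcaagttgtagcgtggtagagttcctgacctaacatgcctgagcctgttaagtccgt
H2ac13 held 4 CCAAT matches and no TATAAA, H2ac15 held 3 CCAAT and 1 TATAAA, and Hist1h2bp held 4 CCAAT and 1 TATAAA. The TATAAA of H2ac15 lies after the annotated start. That of Hist1h2bp is on the other strand and is the same site as the TATAAA of its partner Hist1h2an. None held ATTTGCAT, the octamer known from H2B promoters as a site of OCT1. Of the 58 members 53 matched a RefSeq promoter. CCAAT was in 45 (84.9%, beside 37.4% of all 32851 promoters), in every H2A, H2B and H3 promoter and in 3 of 11 H4 promoters. TATAAA was in 30 (56.6%, beside 13.6%), and the octamer in 12 (22.6%, beside 1.74%), 6 of H2A and 6 of H2B. The regions of paired genes overlap, so a site between them, of any motif, can count for both genes. The octamer sites of H2ac1, H2ac8 and H2ac12 are the same sites as those of their partners H2bc1, H2bc8 and H2bc12. Matches were counted on either strand and at any position, so these are counts of the letters, not of boxes at work in each promoter. ATTGG in capitals is CCAAT on the other strand, and TTTATA is TATAAA; matches of different motifs may share letters.

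In 9 pairs both genes were tested, and in 8 of them both values lay below 0. In none did both genes pass. H2ac13 fell while its partner H2bc13 had a log2 fold change of -0.03 (SE 0.06). H2bc13 was 27.8 to 35.1 CPM in controls and 30.4, 31.5, 32.1 and 28.7 CPM after CYR61, well inside the control range. H2ac15 stood beside H2bc15 at -0.13 (SE 0.06), and Hist1h2bp beside Hist1h2an at -0.09 (SE 0.08). The difference between partners was not tested.

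**Figure D4:**
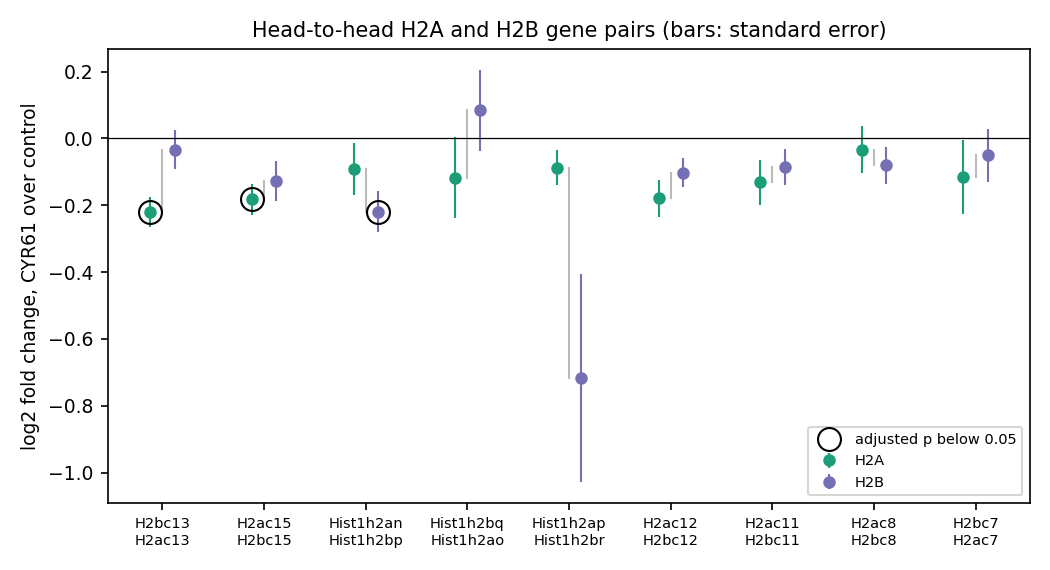
Log2 fold change of both genes of each head-to-head H2A and H2B pair in which both were tested, with bars for the standard error and circles around genes at an adjusted p below 0.05. Each circled gene has a partner that is not circled, and H2ac13 at -0.22 and H2bc13 at -0.03 stand 0.19 apart.

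The linker histones H1f1 to H1f5 bind DNA where it enters and leaves the nucleosome, lie in the same cluster and are also made in S phase. Of the 5, 3 fell (H1f3, H1f4 and H1f5), 0 rose and H1f1 and H1f2 did not pass, and the median log2 fold change was -0.19. H1f4 was 100.2 CPM in the lowest control, 113 in the median and 122 in the highest, and 105, 91.8, 101 and 76.7 after CYR61. CYR61 libraries 2 and 4 lay below every control, libraries 1 and 3 just above the lowest. It fell by 0.28 on the log2 scale (SE 0.07), with an adjusted p of 0.0153 by edgeR.

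H1f5 was 72.3, 78.1 and 87.9 CPM in the lowest, median and highest control and 74.7, 62.3, 70.6 and 65.8 after CYR61. Of these, 3 of the 4 CYR61 libraries lay below every control, and it fell by 0.22 on the log2 scale (SE 0.05), with an adjusted p of 0.0149 by edgeR. H1f3, at 114 to 134 CPM in controls and 124, 103, 112 and 97.6 after CYR61, fell by 0.19 (SE 0.06), with an adjusted p of 0.0497 by edgeR, and lost that call in 10 of 20 alternatives, with an adjusted p of up to 0.196. H1f4 lost it in 3 and H1f5 in 4. The 5 linker genes summed to 489 to 593 CPM in controls and to 538, 446, 508 and 418 after CYR61, 12.6% lower in the mean. Without CYR61 replicate 2 the count of 3 became 0, without CYR61 replicate 4 it became 1, and with controls 1 to 4 alone 0.

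NPAT switches histone genes on, Casp8ap2 joins it at the histone locus body, SLBP binds the stem-loop, and further factors cut the message, export it and destroy it. Of 33 such genes 1 fell and 1 rose, with a median log2 fold change of 0.00. Npat was 21.2 to 26.1 CPM in controls and 18.96, 21.1, 23.2 and 21.5 after CYR61, with a log2 fold change of -0.15 (SE 0.07) that did not pass. Slbp was 23.7 to 27.6 CPM in controls and 26.1, 25.0, 24.2 and 25.4 after CYR61, all inside the control range, with a log2 fold change of -0.02 (SE 0.05). Casp8ap2 was also at -0.02 (SE 0.05). Tut4, a terminal uridylyltransferase, fell by 0.16 (SE 0.03; adjusted p = 0.00612 by edgeR), from 67.3 to 72.3 CPM in controls to 58.4, 61.9, 64.2 and 63.9, with no overlap. E2f1, a transcription factor of S phase entry, rose by 0.15 (SE 0.05; adjusted p = 0.0461 by edgeR) and lost that call in 12 of 20 alternatives.

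Of 26 histone chaperones, which carry histones to DNA, 1 fell and 1 rose, and the median was -0.02. Nasp, a carrier of H3 and H4, was 20.1 to 22.8 CPM in controls and 20.0, 19.4, 18.1 and 23.5 after CYR61, with a log2 fold change of -0.07 (SE 0.06). Hjurp, which deposits the centromeric H3 variant CENP-A, fell by 0.13 (SE 0.04; adjusted p = 0.0381 by edgeR) and lost that call in 11 of 20 alternatives. Daxx, a chaperone of H3.3, rose by 0.19 (SE 0.06; adjusted p = 0.0436 by edgeR) and lost it in 12, its highest CYR61 library holding 72.5 CPM and the lowest 55.9.

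The messages of histone variants made outside S phase have poly(A) tails. Of 11 variants tested, a list that also holds H2ax, 1 fell, 0 rose and 10 did not pass, and the median was -0.02. Cenpa, the centromeric variant, was 64.1, 69.4 and 72.3 CPM in the lowest, median and highest control and 58.6, 57.5, 62.5 and 55.0 after CYR61. The groups did not overlap, and it fell by 0.24 (SE 0.04; adjusted p = 0.000544 by edgeR). The H3.3 genes H3f3a and H3f3b stood at 0.05 (SE 0.04) and 0.02 (SE 0.04), and H2az1 at -0.05 (SE 0.04). H2ax, whose gene makes both a stem-loop and a poly(A) form, was at -0.11 (SE 0.04) with an adjusted p of 0.156 by edgeR.

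Of 42 genes of S phase DNA replication (Mcm2 to Mcm7, Pcna, the DNA polymerases and others), none fell or rose by edgeR, nor by DESeq2 or limma-voom. At an unadjusted p below 0.05, 5 were higher and 0 lower. Their summed level was 1075 to 1174 CPM in controls and 1095 to 1142 CPM after CYR61, inside the control range. Of 20 genes of G2 and mitosis 13 fell and 0 rose, with a median log2 fold change of -0.17, and all 20 were lower at an unadjusted p below 0.05. Their sum was 1991 to 2044 CPM in controls and 1604, 1683, 1778 and 1740.03 CPM after CYR61, 15.4% lower, and the groups did not overlap. Mki67, the proliferation antigen Ki-67, was 648 to 711 CPM in controls and 490.05, 533, 566 and 549 after CYR61, and fell by 0.35 (SE 0.04; adjusted p = 1.28e-05 by edgeR). Cenpf, a kinetochore protein, fell by 0.36 (SE 0.03; adjusted p = 2.09e-06 by edgeR). The part of the mitotic genes in the histone values was not tested.

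**Figure D5:**
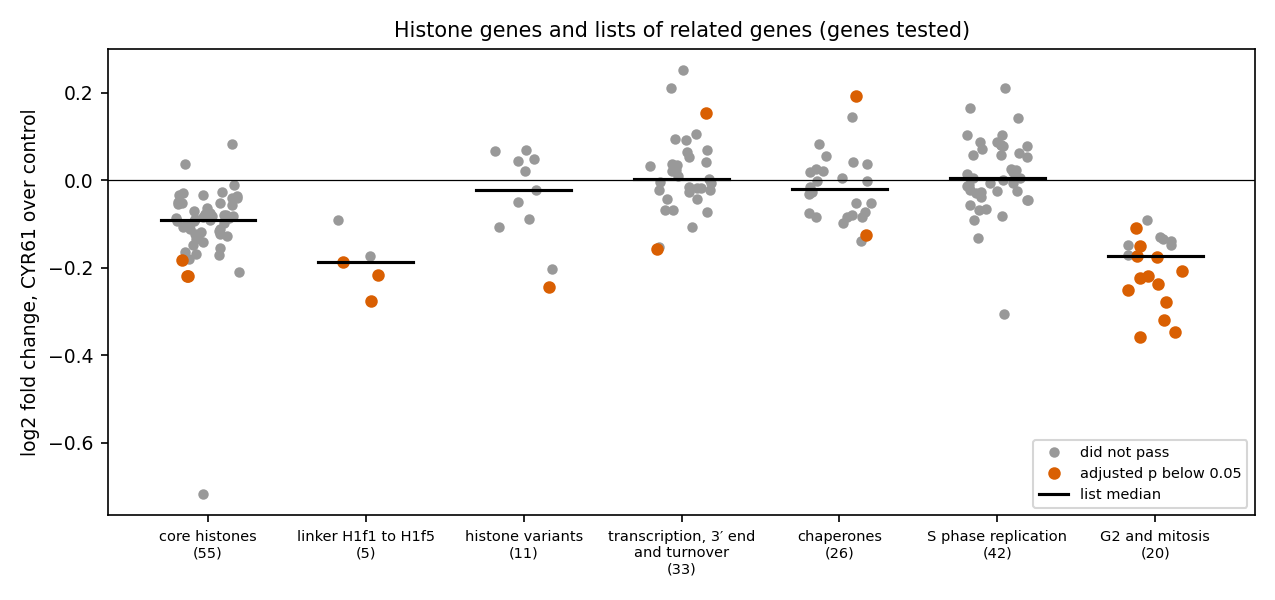
Log2 fold change of each tested gene in the histone set and in lists of related genes, with a bar at each list's median and coloured points for genes at an adjusted p below 0.05. The core histones centre at -0.09, linker histones at -0.19, S phase genes at 0.01 and mitotic genes at -0.17.

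Across the 11 libraries, the log2 level of each gene was set beside that of the histone sum, among 10096 genes of at least 5 CPM that are not members. The likeness is Pearson's r and describes libraries that share depth and 2 treatment groups. The nearest were Cd93 (0.949), Parvb (0.945), Cnrip1 (0.937), Mxd4 (0.935), Cep89 (0.923), Enc1 (0.921), Dag1 (0.919), H1f1 (0.919), Adipor1 (0.917) and Jun (0.917). H1f1 was the linker gene of highest rank, and H2ax (0.898) and H1f0 (0.898), which have replication-linked or variant roles, came at ranks 18 and 19. The median r was 0.782 for the 5 linker genes and 0.726 for 2 further histone genes that are not members (H2aw and H4f16). It was 0.512 for 9 histone variants, 0.494 for the 20 mitotic genes, 0.238 for 36 S phase genes and 0.0969 for 26 chaperones. For 30 genes of histone message synthesis and turnover it was -0.04, and for all candidates 0.01. Single genes spread widely, from -0.947 to 0.784 among S phase genes and from 0.0789 to 0.781 among mitotic genes. Slbp itself was at -0.18 and Npat at -0.04.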

How the data were processed

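Total RNA from 7 control and 4 CYR61 libraries was sequenced after RNase H removal of ribosomal RNA, with random hexamers and paired reads of 150 bases, per the labels' protocols. The submitters' processing notes name DRAGEN. Its version and role, the build, the annotation and the use of strand: not given in the sources used here. Estimated counts per Ensembl gene, not normalized and not whole numbers throughout, were deposited by the authors with 1 column per library. They also deposited a table of their own comparison with log2 fold changes and log2 CPM, p-values and adjusted p-values, and scores (moderated t, log odds), per the file headers.

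The 287 extra rows of repeated gene IDs were dropped (168 IDs, identical values). After rounding, edgeR 4.0.16 in R 4.3.3 was used with filterByExpr, TMM factors, glmQLFit and glmQLFTest over all 11 libraries without covariates, two-sided, Benjamini-Hochberg over 15135 genes, threshold 0.05. CPM are TMM-scaled. Summed levels are descriptions without a test. With a biological coefficient of variation of 5.64%, the SE of a member's log2 fold change was 0.04 to 0.31, with a median of 0.06. The script was tested on simulated counts.

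Alternatives were DESeq2 1.42.0, limma-voom (limma 3.58.1), RLE factors, library size alone, no filter, a 1 CPM minimum mean, totals without ribosomal RNA and mitochondrial genes, the replicate number as a block and leaving out each library. Controls 1 to 4 and the CYR61 libraries without a block were added after seeing the data.

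Stem-loops and windows of 150 bases came from GENCODE M21 transcripts, and promoters and positions from RefSeq tables of build GRCm38.p6; all 58 members matched RefSeq by gene ID and 53 a promoter. A symbol match gives the class. Windows, levels per kilobase and distances of the stem-loop from the end use the shortest coding transcript of each gene.

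The members and the lists were chosen with earlier results of these data known. The linker genes H1f1 to H1f5 were listed after the table's symbols were seen. Named members are the 2 of highest mean CPM in each class, every member past the threshold, the 5 of lowest p, the 3 of highest p and the 2 most variable among controls with a mean of at least 1 CPM; named companions are Slbp, Npat, Casp8ap2, Nasp and up to 6 called genes per list. Others, such as partners in a pair, copies, overlapping transcripts, H2bc21, the H3.3 genes, H2az1 and H2ax, were chosen after their values were seen.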

Additional observations from a re-analysis of the deposited data

Results flagged for a closer look

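In 82 groups of values (35 named genes and 6 summed levels, each in the 4 CYR61 and in the 7 control libraries), 5 had 1 library far from the rest of its group by Dixon's test at the 95% level, and chance alone flags about 1 in 20. H2ac10 was 96.5 CPM in CYR61 replicate 2, below 106.5 to 107.3 in the other 3. H3c6 was 179 CPM in CYR61 replicate 3, above 159 to 161 in the others, and H4c4 was 247 CPM in the same library, above 236 to 238. H2ac12 was 16.04 CPM in control replicate 3, below 17.7 to 18.8 in the other controls. Aspm, a mitotic spindle gene, was 77.1 CPM in CYR61 replicate 1, below 85.9 to 87.2 in the others.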

How the results depend on the processing

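In all 20 alternatives H2ac13 was lower and past the threshold, 0 histone genes were higher, and the median log2 fold change of the histone genes was below 0. The count of lower histone genes, 3 in the main fit of 11 libraries, was 6 with DESeq2, 13 with library size alone, 5 without a filter and, leaving out 1 library at a time, 1 to 10. With the replicate number as a block over replicates 1 to 4 of each group 1 histone gene was lower, and the same 8 libraries without the block also gave 1. Same-numbered libraries did not deviate together (correlations of -0.03, 0.02, -0.04 and 0.04), and the numbers were not taken to pair them. In the block and in the 8 libraries without it the counts were 0 lower and 0 higher for chaperones, 1 higher for S phase genes and 0 lower for linker genes. Genes of histone message synthesis and turnover had 0 higher with limma-voom, with library size alone and without a filter. Chaperones had 0 higher with limma-voom, 4 lower and 0 higher with library size alone, and 0 lower without a filter. Histone variants had 2 lower with library size alone, where the H4 sum ratio, CYR61 over control, was 0.9301 in place of 0.959. The cause of each of these differences was not tested. Leaving out 1 library at a time, linker genes had 0 to 3 lower, mitotic genes 11 to 15 lower, S phase genes 0 to 2 higher, chaperones 0 to 1 in each direction, turnover genes 0 to 1 higher and variants 1 to 2 lower. The ratio of summed levels then ran from 0.922 to 0.957 for all members, 0.909 to 0.937 for H2A, 0.919 to 0.951 for H2B, 0.918 to 0.960 for H3 and 0.938 to 0.976 for H4. Among the 55 tested histone genes the highest count in any library ran from 189 for H2ac7 to 7401 for H2ac19, and the lowest was 38 for Hist1h2br. Single values of the 7 members with no unique window in their shortest coding transcript depend on how shared reads were divided.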
